A study of Arabidopsis thaliana with 18 samples.

Results

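Leaves kept dark for 7 days were compared with day 0 leaves in ml5, an Arabidopsis thaliana line that the labels call a knockdown. The comparison used 6 of the 18 libraries of the series, 3 at day 0 and 3 at day 7, chosen by the column names of the deposited count table, and all 27628 listed genes were considered. The other 12 libraries came from the wild type (WT) and from another knockdown line, ml2, on the same days. In every group the tissue was leaf and the labelled treatment was dark, so a day 0 library marks the start of that treatment. The extraction protocol names doxycycline, an antibiotic, but no sample label assigns it to a library. The sources used here do not say how the knockdown was made, whether the line is 1 clone, how old the plants were or at what hour they were harvested. Columns marked CK were read as day 0 and columns marked D as day 7, an inference from the labels. Nothing states that replicates were separate plants, and the tests compare the groups with the spread among these libraries, which may be technical.

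ML5 belongs to the Mei2-like family of plant RNA-binding proteins, which carry RNA recognition motifs. A leaf kept in the dark cannot fix carbon. It stops making the photosynthetic apparatus, dismantles its chloroplasts, and draws energy and nitrogen from its own protein, chlorophyll and lipid, partly through autophagy, which encloses cell material in membranes and digests it in the vacuole. The genes below are ordered along that course, from the photosynthetic machinery through breakdown and transport to hormones, clock and stress.

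Levels are CPM, counts relative to the library's scaled total, and replicate values are given in the order 1, 2 and 3. A change is a log2 fold change of day 7 against day 0, from an edgeR quasi-likelihood fit over all 18 libraries. The value after ± is an approximate standard error (SE), worked back from the test statistic. It is too small where a gene had only a few reads on one day. A gene is said to have risen or fallen where its p, adjusted by Benjamini and Hochberg over 19493 tested genes, was under 0.05; the other 8135 had too few counts. The WT response shared no library with that of ml5, and the difference between both responses was tested within the same fit. Means are given ± SD (n = 3 libraries). In whole leaves, fewer cells of a type and less RNA per cell cannot be told apart.

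The targeted transcript was low in ml5 on both days. ML5 (AT1G29400, chr1:10289998-10294630 in TAIR10.1) stood at 0.924, 1.56 and 1.13 CPM at day 0 and 0.600, 0.886 and 0.584 CPM at day 7 in ml5. In WT it stood at 208 ± 5.85 CPM at day 0 and 328 ± 14.5 CPM at day 7. Each ml5 library lay far below each WT library. The fall of ML5 within ml5 (-0.81 ± 0.24, adjusted p = 0.00698) lost its call when day 0 replicate 2 was left out (-0.57) or when library sizes alone scaled the counts (-0.40). Its relatives rose in ml5, ML2 from 84.1 ± 1.01 to 303 ± 1.05 CPM, ML1 from 75.7 ± 3.90 to 159 ± 8.22 CPM and ML4 from 45.6 ± 3.58 to 67.3 ± 2.73 CPM. In WT and in ml2 all 4 tested Mei2-like genes rose. The log2 change was higher in ml5 than in WT for none of the 4 and lower for 2, ML5 and ML2. For ML2 that call was lost with library sizes alone (-0.17).

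Totals in ml5 ran from 14914598 to 17312543 counts per library at day 0 and from 19264992 to 20417396 at day 7. Between 377 and 392 genes held 50% of the counts in a day 0 library, and between 1055 and 1062 did at day 7. Day took 95.2% of the variance among the 6 libraries on the first principal component. The chi-square per degree of freedom between ml5 replicates was 1.75 to 4.1, where counting alone gives about 1. The mesophyll markers, which check the leaf label, were CAB3, RBCS1A and CA1; together they stood at 25929 to 27183 CPM at day 0, and at 252 to 259 CPM at day 7. All 6 xylem markers fell from a sum of 22.7 to 23.8 CPM to one of 3.0 to 3.63 CPM, and all 5 tested epidermis markers from 275 to 281 CPM to 70.3 to 79.7 CPM. Of 5 guard cell markers 1 rose and 2 fell, with a sum of 80.7 to 86.9 CPM at day 0 and 80 to 85.7 CPM at day 7. Of 6 phloem markers 2 rose and 3 fell, with sums of 1193 to 1197 CPM and 664 to 714 CPM. With library sizes alone the guard cell markers split 3 up and none down and the phloem markers 3 up and 2 down. Of 3 tested root markers 1 rose and 2 fell, of 3 tested flower markers 1 rose and 2 fell, and no seed marker had enough counts; summed root and flower markers stayed under 28 CPM and 4 CPM. The part of cell type proportions in the changes below was not tested.

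Upstream sequence is shown for 5 genes whose changes are described below, 2 of photosynthesis, 1 induced by darkness, 1 of heat shock and 1 of the clock. The windows are the 250 bases before the annotated gene start in the TAIR10.1 genome, on the coding strand, read from 5′ to 3′: chr1:5447881-5448130 (minus strand) for LHCB6, chr5:15382072-15382321 (minus) for RBCS2B, chr3:17441432-17441681 (minus) for DIN6, chr3:16984868-16985117 (minus) for HSP17.4 and chr2:19245341-19245590 (plus) for CCA1. Capitals mark matches, on either strand, to 5 motifs: the G-box CACGTG and the I-box GATAAG, both known from light-regulated genes, the evening element AAAATATCT, the W-box TTGACC bound by WRKY factors, and the heat shock element, GAA, TTC and GAA with NN between them. No pair of these matches overlapped.
LHCB6: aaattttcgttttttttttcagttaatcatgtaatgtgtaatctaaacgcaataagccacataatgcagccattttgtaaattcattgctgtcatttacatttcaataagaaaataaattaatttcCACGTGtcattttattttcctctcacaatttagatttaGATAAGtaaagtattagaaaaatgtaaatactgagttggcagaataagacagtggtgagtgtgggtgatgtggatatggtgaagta
RBCS2B: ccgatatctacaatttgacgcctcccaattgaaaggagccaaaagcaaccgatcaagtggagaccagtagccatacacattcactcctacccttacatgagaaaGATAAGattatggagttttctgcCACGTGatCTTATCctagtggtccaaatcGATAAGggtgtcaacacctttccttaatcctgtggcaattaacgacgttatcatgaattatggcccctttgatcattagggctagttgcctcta
DIN6: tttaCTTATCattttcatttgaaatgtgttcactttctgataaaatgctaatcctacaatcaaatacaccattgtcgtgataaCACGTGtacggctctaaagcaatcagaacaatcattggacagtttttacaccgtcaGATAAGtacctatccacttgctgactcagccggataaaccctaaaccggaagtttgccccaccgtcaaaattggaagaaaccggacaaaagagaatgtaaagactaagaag
HSP17.4: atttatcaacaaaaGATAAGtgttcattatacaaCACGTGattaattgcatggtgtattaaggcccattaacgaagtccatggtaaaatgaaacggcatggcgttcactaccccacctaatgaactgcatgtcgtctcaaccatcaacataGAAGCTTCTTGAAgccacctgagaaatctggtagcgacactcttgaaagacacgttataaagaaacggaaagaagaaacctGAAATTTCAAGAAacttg
CCA1: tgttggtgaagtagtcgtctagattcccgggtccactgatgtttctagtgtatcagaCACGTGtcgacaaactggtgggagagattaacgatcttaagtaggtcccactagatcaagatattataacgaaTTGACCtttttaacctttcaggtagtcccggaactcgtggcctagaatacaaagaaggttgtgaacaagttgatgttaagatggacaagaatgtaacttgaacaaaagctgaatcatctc
These 5 were chosen after the matches were seen; windows of RBCS1A, LHCB1.3, NIT2, PRODH1, EXO, PHI-1 and XTH22, among others, held no match to the motifs searched.

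Each of the 5 windows held a G-box, 124 bases before the start in LHCB6, 123 in RBCS2B, 167 in DIN6, 216 in HSP17.4 and 193 in CCA1. As they were chosen with their matches known, these 5 say nothing about how often the motif occurs. A G-box was present in 7.37% of the 19335 promoter windows read for tested genes. It was in 21.3% of the photosystem and light-harvesting genes (10 of 47) and in 15.8% of the Calvin cycle genes (3 of 19). It was in 17.6% of the heat shock genes (3 of 17) and in 29.2% of the clock genes (7 of 24). Of genes at least 16-fold higher in ml5 at day 7 it was in 9.02%, and of those at least 16-fold lower in 7.85%. The I-box was present in 12.5% of all windows, in 27.7% of photosystem and light-harvesting genes and in 21.1% of Calvin cycle genes. The heat shock element was in 0.419% of all windows and in 23.5% of those of the heat shock genes (4 of 17). HSP17.4 held it at 99 and at 18 bases before the start. The evening element was in 2.57% of all windows and in 16.7% of those of clock genes. The W-box of the CCA1 window lay 120 bases before the start. That motif was in 12.2% of all windows and in 4.17% of those of clock genes (1 of 24). These are matches of letters, and no binding was measured.

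Most of the transcriptome of ml5 differed between day 0 and day 7. No group was kept in light to day 7, so darkness cannot be told apart from added age or harvest hour. Of the tested genes, 7736 rose (39.7%) and 7821 fell (40.1%), so 79.8% of all genes tested passed the threshold. A change of at least 2-fold was called for 3533 genes upward (18.1%) and 4595 downward (23.6%), and one of at least 16-fold for 732 and 755 genes. The median log2 fold change over all tested genes was 0.002. With library sizes alone as the scaling, that median was 0.41 and the split moved to 10544 genes up and 5615 down (65.3% of calls upward against 49.7%). Counts over gene lists below are read against these shares. Of the list entries 890 distinct genes were tested, and one that was low on one day passed the filter only through the other.

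Photosynthesis genes fell together. All 28 tested genes of the photosystem cores and electron transport fell, with a median of -3.94 (log2), as did 18 of 19 light-harvesting genes (median -4.67) and 19 of 19 genes of the Calvin cycle, which fixes carbon dioxide (median -4.06). The light-harvesting genes held 17.8 to 18.4% of all scaled counts in the day 0 libraries and 0.545 to 0.552% at day 7. LHCB1.3 (chr1:10477885-10479114), an antenna protein of photosystem II and the most abundant transcript at day 0, stood at 46790, 45060 and 45170 CPM at day 0 and 823, 806 and 808 CPM at day 7. Its 3 day 7 libraries lay far below the 3 of day 0, a change of -5.81 ± 0.046. LHCB6, a minor antenna protein whose upstream window is shown above, stood at 6302, 6202 and 6398 CPM at day 0 and 152, 150.5 and 142 CPM at day 7, without overlap (-5.41 ± 0.048). CAB3, another antenna gene, stood at 9387, 8835 and 8807 CPM at day 0 and 1.20, 1.39 and 1.21 CPM at day 7 (-12.79 ± 0.091). Genes of the LHCB1 group are near-identical copies between which the counting could split reads, so their single values are uncertain.

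**Figure D1:**
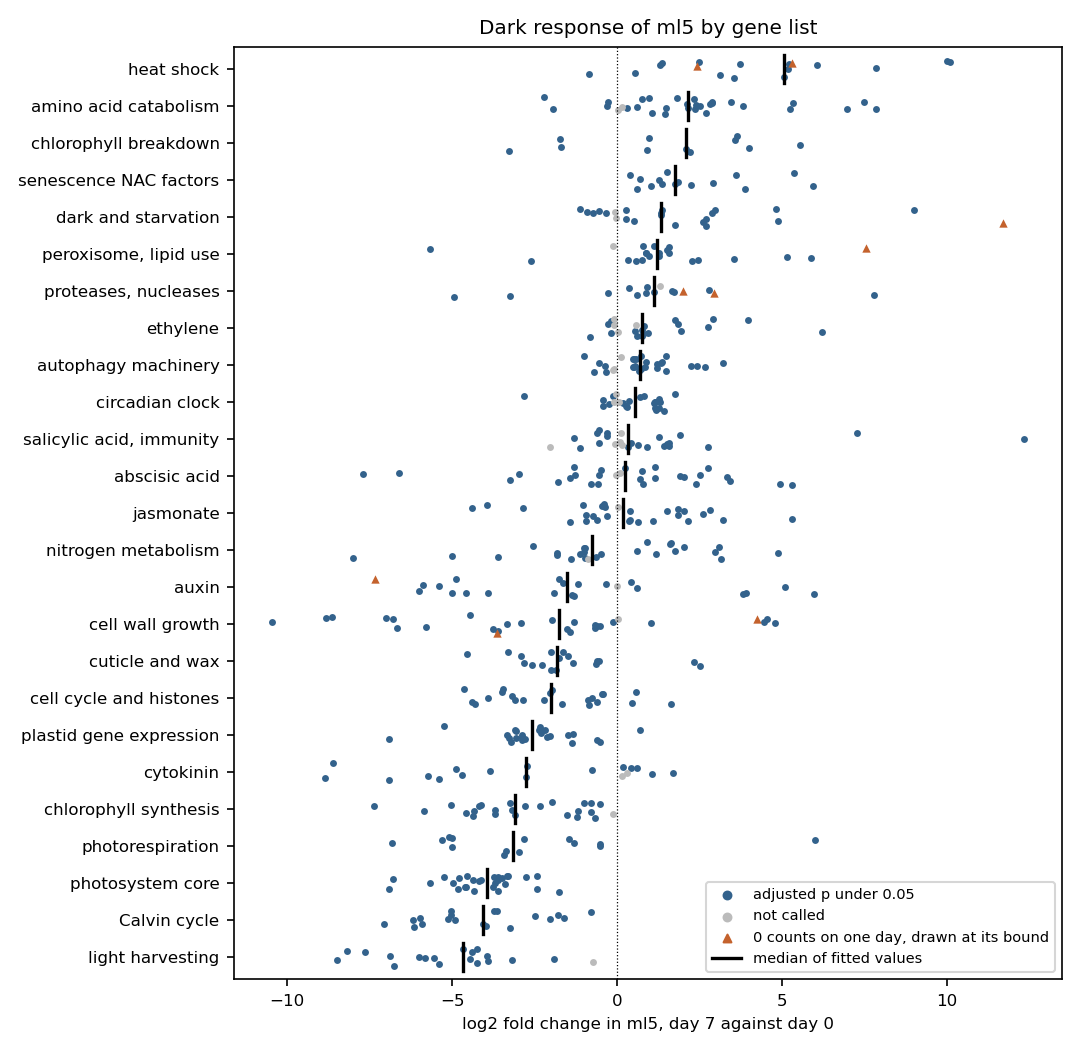
Log2 fold change of ml5, day 7 against day 0 (x axis), for each tested member of 25 gene lists (rows); blue points passed the threshold, grey points did not, triangles had 0 counts on one day and are drawn at their bound, and black bars are medians of fitted values. Light-harvesting genes sit lowest, with a median of -4.67, and heat shock genes highest, with a median of 5.06.

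Within the photosystems, PSBS, which switches photosystem II to heat dissipation, stood at 899.7, 918 and 935 CPM at day 0 and 7.28, 8.48 and 7.19 CPM at day 7 (-6.90 ± 0.072). FNR2, which passes electrons from ferredoxin to NADP, stood at 1673, 1671 and 1605 CPM at day 0 and 15.5, 14.9 and 13.9 CPM at day 7 (-6.80 ± 0.068). PETC, the Rieske protein of the cytochrome b6f complex, fell least of these 3 (-3.30 ± 0.047), from 1270 ± 18.9 to 129 ± 2.16 CPM. In the Calvin cycle, RBCS1A, a small subunit of Rubisco, stood at 15810, 15070 and 15460 CPM at day 0 and 256, 256 and 249.5 CPM at day 7 (-5.93 ± 0.044). All day 7 libraries lay far below day 0 for each gene named here. RBCS2B, another small subunit with its upstream window shown above, fell from 1975 ± 56.0 to 118 ± 2.75 CPM (-4.06 ± 0.051); the RBCS genes are also close copies. PRK, which makes the acceptor of carbon dioxide, stood at 1535, 1559 and 1602 CPM at day 0 and 25.2, 24.4 and 24.6 CPM at day 7 (-5.98 ± 0.052). CA1, a carbonic anhydrase, stood at 1986, 2024 and 2145 CPM at day 0 and 1.28, 1.14 and 1.57 CPM at day 7, close to absence at day 7 (-10.59 ± 0.092). Among all genes with a symbol the largest falls included FBA5, an aldolase of sugar phosphate metabolism, from 717 ± 3.85 to 0.0857 ± 0.0408 CPM (-12.91 ± 0.14), and NdhM, of the plastid NDH complex, which had 0 counts in all 3 day 7 libraries after 61.6, 53.8 and 52.4 CPM at day 0. For NdhM this is a fall of at least 430.0-fold against a floor of 3 counts per library.

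Photorespiration salvages the product of Rubisco's reaction with oxygen, and 13 of its 14 tested genes fell. SHM1, the serine hydroxymethyltransferase of leaf mitochondria, fell from 3200 ± 25.3 to 28.1 ± 3.12 CPM (-6.83 ± 0.069). The exception was GOX3, a glycolate oxidase family member, at 0.231, 0.272 and 0.862 CPM at day 0 and 31.5, 30.1 and 29.9 CPM at day 7, a rise of 6.01 ± 0.19. Of 25 genes of chlorophyll synthesis 24 fell, PORB, a light-dependent protochlorophyllide reductase, from 1211 ± 21.6 to 21.0 ± 0.514 CPM (-5.85 ± 0.054) and GUN4, an activator of magnesium chelatase, from 204 ± 15 to 8.57 ± 0.659 CPM (-4.58 ± 0.096). HEMA2 was the member not called (-0.11 ± 0.063). Of 24 genes for plastid transcription and translation 23 fell; RPOTP, a phage-type RNA polymerase, rose (0.70 ± 0.13). All 88 chloroplast-encoded genes tested fell as well, with a median of -3.26, and together took 0.774 to 0.916% of scaled counts at day 0 and 0.078 to 0.183% at day 7. The labelled kit, Illumina TruSeq RNA, selects polyadenylated RNA, so organelle transcripts are captured only in part. Of 68 tested genes of mitochondria 6 rose and 33 fell.

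Genes of chlorophyll breakdown moved the other way, with 8 of 11 rising and 3 falling (median 2.10). SGR2, a stay-green protein, stood at 3.54, 3.81 and 2.98 CPM at day 0 and 172, 155 and 154 CPM at day 7 (5.54 ± 0.094). NYC1, a chlorophyll b reductase, stood at 148, 148 and 155 CPM at day 0 and 1889, 1851 and 1861 CPM at day 7 (3.63 ± 0.043). Both were higher in each day 7 library than in any of day 0. CLH1, a chlorophyllase not needed for chlorophyll loss in senescing leaves, fell from 94.2 ± 7.09 to 9.63 ± 0.647 CPM (-3.29 ± 0.071). PES1 and PES2, phytyl ester synthases that store the phytol and fatty acids of dismantled chloroplasts, rose from 7.69 ± 0.957 to 453 ± 5.43 CPM (5.89 ± 0.076) and from 11.5 ± 0.295 to 407 ± 9.01 CPM (5.15 ± 0.069). They belong to a list of lipid use and peroxisome genes of which 19 of 22 rose and 2 fell (median 1.20). PPDK, which makes phosphoenolpyruvate from pyruvate, rose from 137 ± 5.67 to 1610 ± 9.95 CPM (3.56 ± 0.071), and PMDH2, a peroxisomal malate dehydrogenase, fell from 1467 ± 24.2 to 28.9 ± 0.465 CPM (-5.66 ± 0.059).

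Amino acid breakdown rose as a group, 25 of 31 tested genes upward and 4 downward, with a median of 2.14. PRODH1, the proline dehydrogenase, stood at 28.6, 26.7 and 28.4 CPM at day 0 and 3508, 3465 and 3458 CPM at day 7 (6.96 ± 0.059). LKR/SDH, the bifunctional enzyme of lysine breakdown, stood at 10.5, 10.7 and 9.02 CPM at day 0 and 1797, 1766 and 1801 CPM at day 7 (7.48 ± 0.063). THA1, a threonine aldolase, stood at 1.08, 0.817 and 0.928 CPM at day 0 and 221, 217 and 209 CPM at day 7 (7.84 ± 0.092). All 3 genes were higher in each day 7 library than in any day 0 library. BCAT2, a branched-chain aminotransferase, rose from 26.7 ± 1.02 to 292 ± 5.57 CPM (3.45 ± 0.062). GDH1, a glutamate dehydrogenase subunit, fell from 339 ± 8.28 to 87.5 ± 4.49 CPM (-1.95 ± 0.054), and GAD2, a glutamate decarboxylase, from 607 ± 8.28 to 130.1 ± 0.671 CPM (-2.22 ± 0.045).

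Nitrogen genes split, 11 rising and 14 falling of 26. The asparagine synthetases went in opposite directions. DIN6 (chr3:17437840-17441431), also called ASN1, makes the nitrogen-rich amide asparagine and is a classic dark-induced gene; it stood at 118, 119 and 123 CPM at day 0 and 3530, 3472 and 3520 CPM at day 7. ASN2, its light-expressed relative, stood at 239.6, 236 and 234 CPM at day 0 and 0.685, 1.01 and 1.03 CPM at day 7. DIN6 rose by 4.87 ± 0.071 and ASN2 changed by -8.01 ± 0.11, each without overlap. GLN1.3, a cytosolic glutamine synthetase, rose (3.15 ± 0.067) and the plastid form GS2 fell (-5.29 ± 0.069). NIA2, the main nitrate reductase, stood at 1570, 1562 and 1663 CPM at day 0 and 124, 132 and 133 CPM at day 7 (-3.62 ± 0.060). AAP2, an amino acid permease, fell from 789 ± 40.6 to 24.7 ± 3.16 CPM (-5.0 ± 0.075). Outside the list, GAT1_2.1, a glutamine amidotransferase-like protein, stood at 0.0770, 0.136 and 0.0663 CPM at day 0 and 319, 306 and 325 CPM at day 7 (11.62 ± 0.13).

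**Figure D2:**
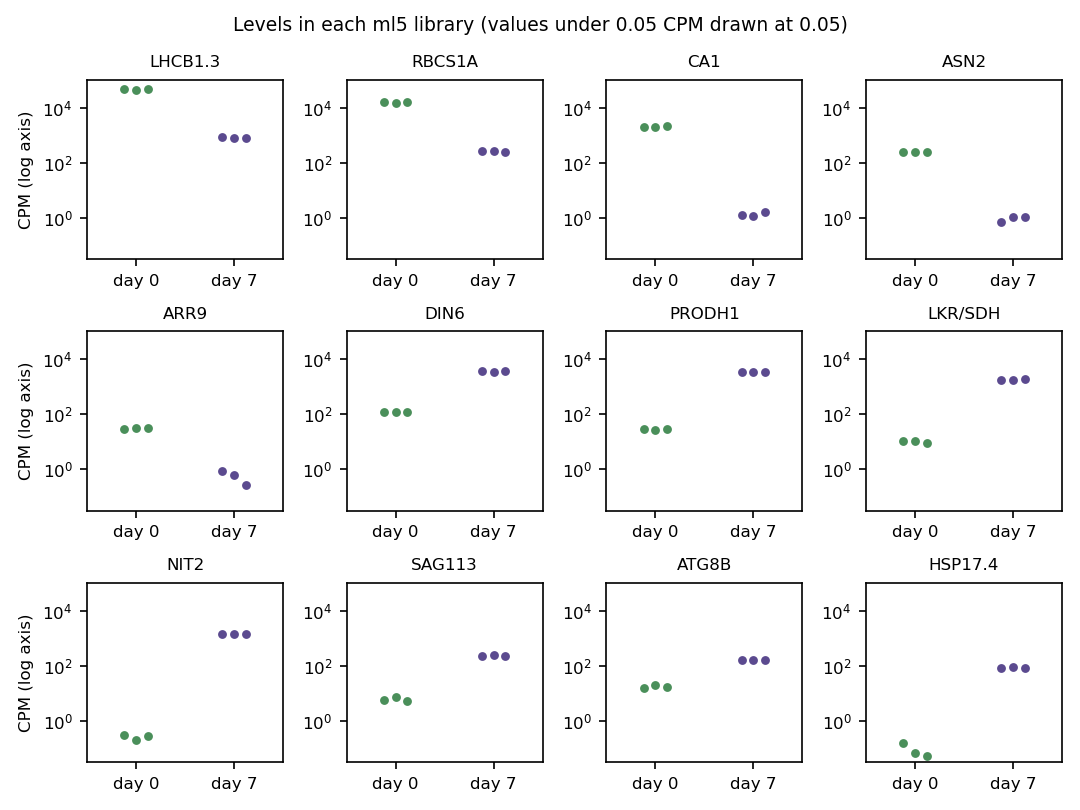
Level in each of the 6 ml5 libraries (points; y axis, CPM on a log scale) for 12 genes at day 0 (green) and day 7 (violet), with values under 0.05 CPM drawn at 0.05. The first 5 panels fall without overlap and the other 7 rise without overlap, NIT2 from under 1 CPM to 1371 CPM or more.

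Of 23 genes known to respond to darkness or starvation 16 rose and 5 fell (median 1.33). DIN2, a beta-glucosidase, had 0 counts in all 3 day 0 libraries and stood at 705, 694 and 714 CPM at day 7, a rise of at least 3330-fold. DIN1, a sulfurtransferase-like protein, and DIN10, a raffinose synthase-like protein, rose from 631 ± 8.88 to 4076 ± 51.4 CPM (2.69 ± 0.045) and from 630.3 ± 7.93 to 3838 ± 35.0 CPM (2.61 ± 0.046). GPT2, a glucose 6-phosphate transporter of the plastid envelope, stood at 0.385, 0.136 and 0.133 CPM at day 0 and 112, 112 and 109 CPM at day 7 (9.0 ± 0.15). Of 23 genes of starch and sugar metabolism 9 rose and 14 fell. AMY1, an alpha-amylase, stood at 0.770, 1.16 and 0.597 CPM at day 0 and 81.7, 86.9 and 83.8 CPM at day 7 (6.63 ± 0.14). GBSS1, a starch synthase, fell from 24.3 ± 2.08 to 0.974 ± 0.325 CPM (-4.64 ± 0.19). Of 24 sugar transporters 9 rose and 11 fell, against 14 up and 5 down with library sizes alone. SUC2, which loads sucrose into the phloem, fell from 319.6 ± 4.22 to 52.0 ± 1.78 CPM (-2.62 ± 0.070), and the vacuolar transporter TMT1 rose from 72.8 ± 3.44 to 468 ± 7.21 CPM (2.68 ± 0.074).

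All 15 tested NAC transcription factors of senescence rose, with a median of 1.76, against 39.7% of all genes. NAC047 stood at 4.78, 2.99 and 3.98 CPM at day 0 and 167, 157 and 158 CPM at day 7 (5.37 ± 0.11), and NAC055 rose from 9.43 ± 1.25 to 139.7 ± 4.75 CPM (3.88 ± 0.077). Of 16 WRKY factors 12 rose and 2 fell (median 0.82): WRKY75, a positive regulator of senescence, stood at 0.385, 0.204 and 0.133 CPM at day 0 and 41.9, 44.1 and 41.4 CPM at day 7 (7.46 ± 0.17), while WRKY53 fell from 44.3 ± 3.31 to 22.4 ± 1.10 CPM (-0.99 ± 0.068). Among 18 other senescence genes 14 rose and 2 fell. SAG113, a protein phosphatase of abscisic acid signalling, stood at 5.55, 7.01 and 4.97 CPM at day 0 and 228, 234 and 226 CPM at day 7 (5.29 ± 0.076). SRG1, a senescence-related oxygenase, rose from 0.331 ± 0.115 to 75.2 ± 1.84 CPM (7.81 ± 0.14). Of 15 tested proteases and nucleases 11 rose and 3 fell; RD21A, a vacuolar cysteine protease, stood at 738, 765 and 758 CPM at day 0 and 2518, 2431 and 2463 CPM at day 7 (1.71 ± 0.036).

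Most autophagy genes rose. Of 30 tested genes of the core machinery 22 rose and 5 fell, with a median of 0.69, and of 7 receptors 5 rose and 2 fell. ATG8B, one of the ubiquitin-like proteins that coat the autophagosome membrane, stood at 15.9, 19.5 and 17.1 CPM at day 0 and 165, 163 and 163 CPM at day 7 (3.22 ± 0.071). ATG7, the enzyme that activates ATG8 for attachment, stood at 10.6, 10.4 and 9.68 CPM at day 0 and 66.2, 65.2 and 61.5 CPM at day 7 (2.65 ± 0.092). Both groups of libraries were apart for both genes. NBR1, a receptor for ubiquitinated cargo, rose from 346 ± 5.89 to 694 ± 4.09 CPM (1.0 ± 0.044). Proteasome genes rose in 12 and fell in 8 of 28 cases (median 0.09), a split that depended on the scaling, with 24 up and none down (median 0.49) when only library sizes scaled the counts. Of the ubiquitin genes UBQ3 rose from 661 ± 18.2 to 2490 ± 15.1 CPM (1.91 ± 0.046). S6K2, a kinase downstream of TOR, rose from 16.9 ± 0.738 to 80.8 ± 4.93 CPM (2.26 ± 0.074).

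Heat shock genes had the highest median of the lists described, 5.06 from fitted values and 3.71 with members at 0 counts set to their bounds; 16 of 17 rose and 1 fell. HSP17.4, a small heat shock protein with 2 heat shock elements in the window shown above, stood at 0.154, 0.0680 and 0 CPM at day 0 and 80.7, 86.9 and 81.7 CPM at day 7 (10.08 ± 0.20), the day 0 values resting on a few reads. HSP70 stood at 1.85, 2.11 and 2.79 CPM at day 0 and 529, 526 and 524 CPM at day 7 (7.85 ± 0.092). HSFA2, a heat shock transcription factor, rose from 0.718 ± 0.560 to 26.7 ± 0.732 CPM (5.19 ± 0.18). Day 7 libraries lay above day 0 libraries for all 3. In the endoplasmic reticulum list 9 of 15 rose and 4 fell, BZIP60, a factor of the unfolded protein response, from 53.1 ± 3.41 to 99.7 ± 3.29 CPM (0.91 ± 0.060). Of 26 respiration and redox genes 11 rose and 11 fell, against 14 and 8 with library sizes alone. CAT3, a catalase, was the most abundant transcript at day 7, at 12810, 12530 and 12570 CPM (0.98 ± 0.032). AOX1D, an alternative oxidase, stood at 0.154, 0.136 and 0.0663 CPM at day 0 and 41.6, 40.7 and 43.0 CPM at day 7 (8.40 ± 0.18), and the iron superoxide dismutase FSD1 fell from 798 ± 27.5 to 254 ± 8.63 CPM (-1.65 ± 0.053).

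Hormone genes moved gene by gene. Among strigolactone genes 8 of 13 rose and 5 fell; CCD8, a carotenoid cleavage dioxygenase of strigolactone synthesis, had 0 counts in all 3 day 0 libraries and 454, 456 and 452 CPM at day 7, a rise of at least 2150-fold, and CCD7 went from 0 to 89.7, 92.6 and 93.5 CPM, at least 435-fold higher. Of 18 cytokinin genes 11 fell and 5 rose (median -2.75); ARR9, a type-A response regulator, stood at 28.2, 31.1 and 31.9 CPM at day 0 and 0.814, 0.591 and 0.270 CPM at day 7 (-5.74 ± 0.17), and ARR6 fell from 29.9 ± 2.64 to 0.0578 ± 0.0652 CPM (-8.86 ± 0.26, on a few reads at day 7). CKX5, which degrades cytokinin, rose from 7.06 ± 1.25 to 22.7 ± 1.91 CPM (1.69 ± 0.11). In the auxin list 15 of 22 fell and 6 rose: GH3.5, which conjugates auxin to amino acids, stood at 10.6, 11.7 and 14.5 CPM at day 0 and 417, 417 and 418 CPM at day 7 (5.08 ± 0.073), whereas the auxin carrier PIN7 fell from 58.1 ± 0.467 to 2.41 ± 0.210 CPM (-4.59 ± 0.11). Abscisic acid genes rose in 15 and fell in 12 of 29 cases, COR15A, a cold-regulated target, from 153 ± 7.46 down to 1.56 ± 0.203 CPM (-6.61 ± 0.11). Jasmonate genes rose in 14 and fell in 13 of 28 cases, with ST2A, a jasmonate sulfotransferase, at 11.9, 10.9 and 12.6 CPM at day 0 and 481, 459 and 469 CPM at day 7 (5.31 ± 0.071) and AOC2, an enzyme of jasmonate synthesis, down from 465 ± 4.12 to 22.3 ± 1.52 CPM (-4.38 ± 0.057). Ethylene genes rose in 14 and fell in 4 of 22 cases, among them the synthase ACS2 at 0.308, 0.204 and 0.133 CPM at day 0 and 14.3, 16.3 and 17.2 CPM at day 7 (6.20 ± 0.23). Gibberellin and brassinosteroid genes fell in 15 and rose in 7 of 24 cases.

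Immunity genes rose in 13 and fell in 7 of 25 cases, against 17 up and 3 down with library sizes alone. NIT2 (chr3:15983199-15985535), a nitrilase, stood at 0.308, 0.204 and 0.265 CPM at day 0 and 1379, 1371 and 1376 CPM at day 7 (12.35 ± 0.11). Its close copy NIT1 rose from 616 ± 12.5 to 3555 ± 35.4 CPM (2.53 ± 0.043), and as near-identical copies the 2 may share reads. FMO1, a monooxygenase of systemic resistance, stood at 0.154, 0.340 and 0.265 CPM at day 0 and 39.1, 41.3 and 42.8 CPM at day 7 (7.28 ± 0.18). PR5, a pathogenesis-related protein, fell from 21.9 ± 1.36 to 8.91 ± 0.296 CPM (-1.30 ± 0.100). Outside the list, KTI1, a trypsin inhibitor, stood at 0.462, 0.680 and 0.597 CPM at day 0 and 1253, 1272 and 1198 CPM at day 7 (11.03 ± 0.095).

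Growth and surface genes mostly fell. In the cell wall list 22 of 28 fell and 5 rose (median -1.75), EXPA8, an expansin, from 29.0, 29.1 and 31.5 CPM to 0.0428, 0 and 0 CPM. XTH24, a xyloglucan-modifying enzyme, rose from 108 ± 5.50 to 2367 ± 20.2 CPM (4.46 ± 0.051). Of 22 cell cycle and histone genes 19 fell and 3 rose, among the latter KRP1, an inhibitor of cyclin-dependent kinases (1.65 ± 0.064). Cuticle and wax genes fell in 16 of 18 cases; KCS1, which elongates fatty acids for wax, stood at 101, 101 and 103 CPM at day 0 and 13.7, 14.3 and 15.3 CPM at day 7 (-2.82 ± 0.068). Of 23 glucosinolate genes 19 fell and 4 rose, TGG1, a myrosinase, from 1997 ± 21.4 down to 67.3 ± 3.05 CPM (-4.89 ± 0.046). Flavonoid genes fell in 6 and rose in 2 of 10 cases. In the sulfur and phosphate list 5 rose and 8 fell of 16, against 8 and 4 with library sizes alone; PAP17, a purple acid phosphatase, rose from 11.5 ± 1.36 to 402 ± 14.2 CPM (5.13 ± 0.075). Cytosolic ribosome and translation genes rose in 12 and fell in 6 of 21 cases, and flowering genes in 5 and 6 of 17, against 9 and 3 with library sizes alone.

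Clock genes rose in 16 and fell in 5 of 24 cases (median 0.54), against 21 up and 1 down with library sizes alone. Light signalling genes rose in 12 and fell in 14 of 31, against 19 up and 11 down with library sizes alone. CCA1 (chr2:19245591-19248915), a morning-phased repressor of the clock, stood at 38.6, 40.7 and 40.1 CPM at day 0 and 88.0, 85.3 and 90.7 CPM at day 7 (1.14 ± 0.058). LHY, its close relative, stood at 19.4, 22.8 and 17.8 CPM at day 0 and 44.7, 42.8 and 45.5 CPM at day 7 (1.15 ± 0.083). PRR9, a pseudo-response regulator, rose from 39.9 ± 1.78 to 135 ± 1.53 CPM (1.76 ± 0.056). For these 3 genes each day 7 library lay above each day 0 library. HFR1, a regulator of the shade response, rose from 11.3 ± 1.09 to 174 ± 1.69 CPM (3.94 ± 0.074) and PIF1, a phytochrome-interacting factor, fell from 48.0 ± 2.81 to 6.26 ± 0.780 CPM (-2.94 ± 0.10). The hour of harvest is not given, so day cannot be told apart from phase for these genes.

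The response of ml5 was then set against that of WT. Of the tested genes 6906 differed (35.4%), 3387 with a higher log2 change in ml5 (17.4%) and 3519 with a lower one (18.1%); at 2-fold or more the counts were 780 and 919 (4% and 4.71%). The overall share of genes called was 81.9% in WT. In most of these both lines changed the same way: in 3517 genes (18%) ml5 changed less, and in 1251 (6.42%) ml5 changed more. A further 717 genes were called in ml5 and not in WT, with the difference called (3.68%), and 930 the reverse (4.77%). The lines went in opposite directions in 467 genes (2.4%), 180 up in ml5 and down in WT (0.923%) and 287 the reverse (1.47%).

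**Figure D3:**
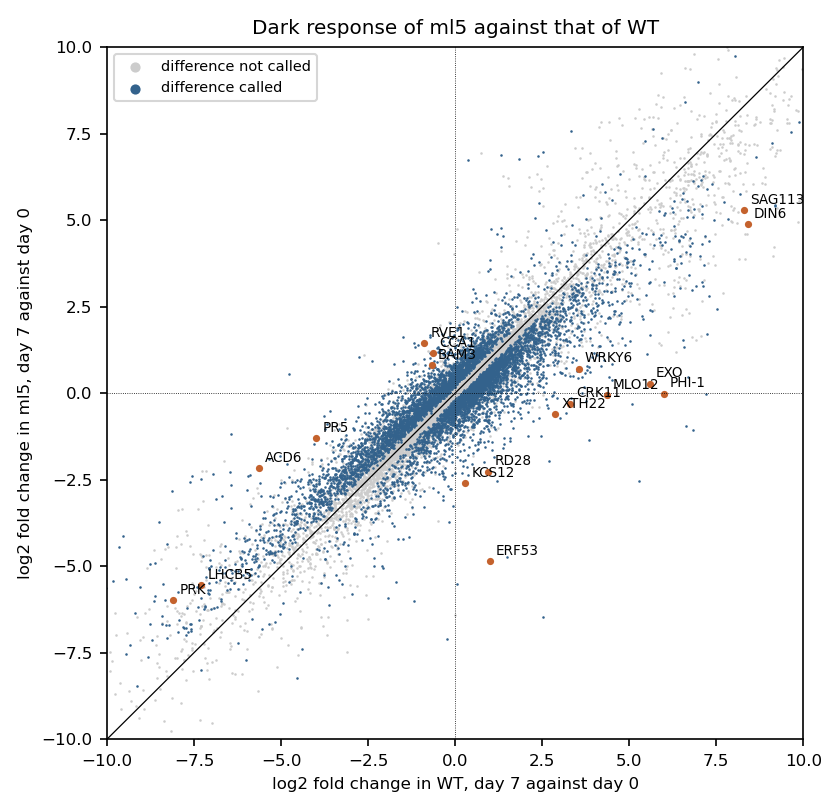
Log2 fold change of day 7 against day 0 in WT (x axis) and in ml5 (y axis) for each tested gene within 10 units of 0 on both axes (genes beyond are not drawn), with the diagonal of equal response; blue points have a difference past the threshold and named genes are orange. ACD6 lies above the diagonal, with a difference of 3.47, and PHI-1, EXO and ERF53 lie far below it, with differences of -6.01, -5.31 and -5.85.

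Photosynthesis genes fell less in ml5 than in WT. By list medians they also fell less in ml2 than in WT, with values given below. The log2 change was higher in ml5 for 27 of 28 photosystem genes, 17 of 19 light-harvesting genes, 18 of 19 Calvin cycle genes, 13 of 14 photorespiration genes and 18 of 24 plastid gene expression genes, and lower for none, against 17.4% of all tested genes. PRK fell from 2362 ± 11.2 to 8.55 ± 0.391 CPM in WT (-8.11 ± 0.059), below its level in any ml5 library, and the difference was 2.13 ± 0.073 (adjusted p = 2.95e-20). RBCS2B fell from 3471 ± 26.4 to 69.6 ± 3.76 CPM in WT, and differed by 1.58 ± 0.066 (adjusted p = 3.25e-18). GLDP1, a subunit of glycine decarboxylase, fell from 2391 ± 102 to 18.6 ± 0.734 CPM in WT and from 1060 ± 97.5 to 33.2 ± 0.846 CPM in ml5, a difference of 2.01 ± 0.15. At day 7 all 28 photosystem genes were higher in ml5 than in WT, against 19.3% of all genes (43.3% differed and 24% were lower); at day 0, 1 was higher and 18 lower, against 19.5% and 18.8% of all genes (38.3% differed). LHCB6 differed by 0.52 ± 0.058. CA1 was an exception, with a difference of -0.42 ± 0.17 that was not called (adjusted p = 0.0609). Chloroplast-encoded genes went the other way, with the log2 change lower in ml5 for 43 of 88 and higher for none. Of them 67 were higher in ml5 at day 0. Chloroplast transcripts, captured only in part, made up 0.674 to 0.801% of counts in ml5 and 0.355 to 0.509% in WT at day 0. At day 7 they made up 0.0906 to 0.211% and 0.138 to 0.216%. The 88 genes share that part of each library and are not 88 separate observations.

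In several breakdown and regulatory lists many genes had a lower log2 change in ml5, counted against 18.1% of all genes. The log2 change was lower in ml5 for 24 of 28 jasmonate genes, 10 of 15 NAC factors, 9 of 16 WRKY factors, 13 of 23 dark and starvation genes, 16 of 31 amino acid breakdown genes, 12 of 22 lipid and peroxisome genes, 15 of 29 abscisic acid genes, 11 of 18 wax genes and 15 of 28 proteasome genes. At day 7 ml5 was lower than WT for 21 jasmonate, 13 NAC, 17 lipid, 16 abscisic acid and 16 proteasome genes. It was higher for 1, 1, 2, 2 and 1. Dark and starvation genes split 7 lower and 7 higher, amino acid genes 10 and 8, wax genes 6 and 5, WRKY genes 7 and 3. Of all genes 24% were lower and 19.3% higher. At day 0, 15 dark and starvation and 16 amino acid genes were higher in ml5, and 4 and 7 lower. Of all genes 19.5% and 18.8% were so. DIN6 rose from 11 ± 1.54 to 3720 ± 34.9 CPM in WT, so that the lines stood apart at day 0 by 3.44 ± 0.085 and at day 7 by -0.09 ± 0.059 (ml5 against WT, log2), and the responses differed by -3.53 ± 0.10 (adjusted p = 9.29e-22). NAC019 rose from 8.90 ± 0.819 to 108 ± 3.41 CPM in ml5 and from 3.81 ± 1.47 to 304 ± 0.729 CPM in WT, a difference of -2.74 ± 0.16. WRKY6, a factor of senescence and phosphate signalling, rose from 30.8 ± 1.51 to 50.1 ± 1.82 CPM in ml5 and from 7.06 ± 0.716 to 82.4 ± 3.95 CPM in WT, a difference of -2.84 ± 0.11. SAG113 rose to 400.1 ± 9.54 CPM in WT from 1.25 ± 0.224 CPM, a difference of -3.01 ± 0.17. JAZ10, a repressor of jasmonate signalling, rose from 7.17 ± 0.393 to 29.5 ± 1.51 CPM in ml5 and from 1.62 ± 0.344 to 52.5 ± 1.29 CPM in WT, a difference of -2.99 ± 0.16. In the autophagy machinery 7 of 30 genes had a lower log2 change in ml5 and 2 a higher one, against 18.1% and 17.4% of all genes. ATG7 was one of the 7, at 114 ± 2.16 CPM in WT (difference -0.83 ± 0.14), while PRODH1 (-0.09 ± 0.075) and, in autophagy, ATG8B (0.10 ± 0.10) had differences that were not called.

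PHI-1, EXO, XTH22, CWINV1 and CRK11 rose in WT from a day 0 level below that of ml5. PHI-1 (chr1:12851983-12853235), a phosphate-responsive protein related to EXORDIUM, stood at 53.8, 53.4 and 55.3 CPM at day 0 and 54.6, 55.6 and 50.2 CPM at day 7 in ml5, where its change was not called (-0.02 ± 0.064, adjusted p = 0.793). In WT it rose from 0.970 ± 0.356 to 63.0 ± 3.49 CPM, and the responses differed by -6.01 ± 0.15. EXO, the EXORDIUM protein of brassinosteroid-promoted growth, stood at 42.1 ± 2.09 and 51.0 ± 1.94 CPM in ml5 and at 1.77 ± 0.564 and 84.8 ± 3.99 CPM in WT, a difference of -5.31 ± 0.15. XTH22, a touch-induced xyloglucan-modifying enzyme, fell in ml5 from 216 ± 6.10 to 142 ± 0.854 CPM and rose in WT from 25.9 ± 2.57 to 189 ± 2.96 CPM, a difference of -3.47 ± 0.090. For these 3 genes ml2 at day 0 was near WT, at 0.987 ± 0.0932, 1.68 ± 0.517 and 21.1 ± 2.97 CPM. CWINV1, a cell wall invertase, stood at 55.5 ± 4.07 and 50.5 ± 1.03 CPM in ml5 and rose in WT from 5.14 ± 0.638 to 50.9 ± 1.76 CPM (difference -3.45 ± 0.13), with ml2 at 57.9 ± 7.55 CPM at day 0. CRK11, a receptor-like kinase, stood at 42.9 ± 1.44 and 34.7 ± 1.5 CPM in ml5 and rose in WT from 3.83 ± 0.517 to 37.4 ± 3.10 CPM (difference -3.60 ± 0.13). ERF53, a drought-responsive transcription factor, was also higher in ml5 at day 0 and fell there, from 43.8, 42.0 and 43.2 CPM to 1.63, 1.35 and 1.44 CPM and rose in WT from 1.72 ± 0.617 to 3.42 ± 0.757 CPM (difference -5.85 ± 0.26).

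**Figure D4:**
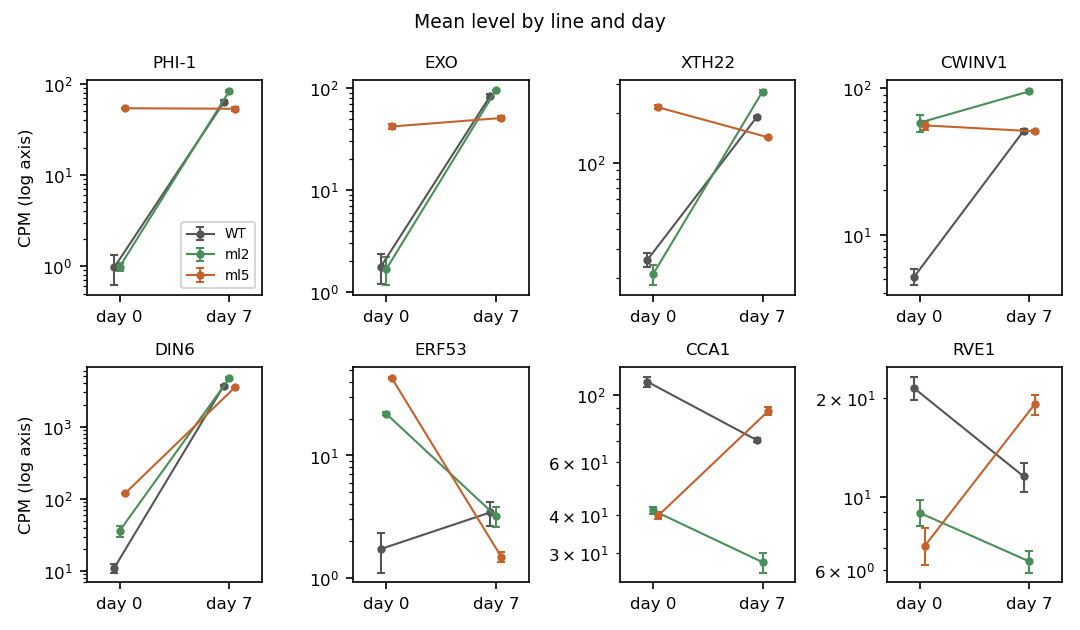
Mean level (y axis, CPM on a log scale) at day 0 and day 7 in WT (grey), ml2 (green) and ml5 (orange) for 8 genes, with bars of 1 SD over 3 libraries. PHI-1, EXO and XTH22 stand high in ml5 alone at day 0, and CCA1 and RVE1 rise in ml5 and fall in WT and ml2.

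Some wax and clock genes went in opposite directions in ml5 and WT. KCS12, another fatty acid elongase, fell in ml5 from 324 ± 7.99 to 53.7 ± 2.47 CPM and rose in WT from 56.0 ± 0.773 to 67.9 ± 2.44 CPM (difference -2.87 ± 0.075). MYB96, a transcription factor that activates wax synthesis, fell in ml5 from 85.2 ± 0.972 to 27.2 ± 1.5 CPM and rose in WT from 24.4 ± 2.65 to 50.2 ± 4.38 CPM (difference -2.69 ± 0.12). At day 0, 12 of 18 wax genes were higher in ml5 than in WT, against 19.5% of all genes. CCA1 fell in WT from 110.2 ± 4.05 to 70.6 ± 1.04 CPM, against its rise in ml5, a difference of 1.79 ± 0.080 (adjusted p = 1.7e-17). RVE1, a clock-regulated factor that promotes auxin synthesis, stood at 8.16, 6.46 and 6.70 CPM at day 0 and 18.2, 18.6 and 20.7 CPM at day 7 in ml5 and fell in WT from 21.5 ± 1.75 to 11.6 ± 1.16 CPM, a difference of 2.33 ± 0.15. In the clock list 13 of 24 genes had a higher log2 change in ml5 and 6 a lower one, against 17.4% and 18.1% of all genes. The hour of harvest is not given for any line, so line cannot be told apart from phase for the clock genes.

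In the immunity list 11 of 25 genes had a higher log2 change in ml5 and 6 a lower one, against 17.4% and 18.1% of all genes. Outside the list, ACD6, an ankyrin protein of cell death and salicylic acid signalling, stood at 210.1, 211 and 219.9 CPM at day 0 and 45.3, 46.8 and 51.0 CPM at day 7 in ml5, while in WT it fell from 390.2 ± 4.38 to 7.86 ± 0.631 CPM (difference 3.47 ± 0.091, adjusted p = 5.46e-23). PR5 fell in WT from 21.0 ± 2.04 to 1.31 ± 0.129 CPM (difference 2.70 ± 0.19), again a larger fall than in ml5. Also outside it, PCC1, a pathogen- and clock-controlled gene, fell in ml5 from 56.0 ± 2.75 to 1.86 ± 0.393 CPM and in WT from 126 ± 2.65 to 0.323 ± 0.202 CPM (difference 3.71 ± 0.28). NIT2 began lower in ml5 than in WT (2.45 ± 0.856 CPM) and ended close to it (1493 ± 27.2 CPM), a difference of 3.08 ± 0.30. BAM3, a plastid beta-amylase that degrades starch, rose in ml5 from 232 ± 2.07 to 403 ± 8.51 CPM and fell in WT from 359.5 ± 3.03 to 226 ± 1.36 CPM (difference 1.47 ± 0.056). NIA1, a nitrate reductase, did the reverse, from 232 ± 12.8 down to 106 ± 2.52 CPM in ml5 and from 214 ± 6.57 up to 372 ± 6.80 CPM in WT (difference -1.93 ± 0.13).

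Against ml2, the other knockdown line, 5034 genes differed in response (25.8%), of which 2660 had the higher log2 change in ml5 and 2374 the lower. When only library sizes scaled the counts, that split was 4995 higher and 1203 lower (80.6% higher against 52.8%). Replicate 1 of ml2 at day 0 differed from the other 2 of its group by 12.7 and 8.61 times counting noise. In the clock list 17 of 24 genes had the higher log2 change in ml5 and none the lower, against 13.6% of all genes. CCA1 fell in ml2 from 41.4 ± 1.04 to 27.9 ± 2.13 CPM (difference 1.72 ± 0.085, adjusted p = 6.99e-16). In the heat shock list 9 of 17 had the higher change in ml5 and none the lower, against 13.6% and 12.2% of all genes. HSP70 rose in ml2 to 353 ± 25.9 CPM (difference 1.74 ± 0.16). Compared with WT, 1 of the 17 had the higher change in ml5 and 5 the lower, against 17.4% and 18.1% of all genes. Their summed level at day 7 was 1401 CPM in ml5 and 2334 CPM in WT. ACD6 fell in ml2 from 362 ± 26.1 to 9.0 ± 0.566 CPM, a difference of 3.17 ± 0.090, and NIT2 rose there from 6.30 ± 0.382 to 2133 ± 92.3 CPM, a difference of 3.95 ± 0.25. Of the 88 chloroplast-encoded genes 64 had the lower change in ml5, against 12.2% of all genes. For photosystem genes the median log2 change was -4.18 in ml2, -3.94 in ml5 and -4.64 in WT, and for Calvin cycle genes -4.93, -4.06 and -5.64. The ml5 change was higher than that of ml2 in 17 of 28 and 14 of 19 of these, and lower in 1 of each. For chlorophyll synthesis the medians were -2.60, -3.11 and -3.23. Wax genes had a higher change in ml5 than in ml2 in 2 and a lower one in 1 of 18 cases, proteasome genes in 1 and 5 of 28. For jasmonate genes the median log2 change was -0.21 in ml2, 0.19 in ml5 and 1.28 in WT. For NAC factors it was 1.23, 1.76 and 2.37, and for WRKY factors 1.03, 0.82 and 1.79. The ml5 change was higher than that of ml2 in 12 jasmonate, 7 NAC and 5 WRKY genes and lower in 3, 2 and 3. It was lower in 16 of 23 dark and starvation genes and in 12 of 31 amino acid breakdown genes, and higher in 4 of each. SAG113 (0.23 ± 0.13, adjusted p = 0.201), KCS1 (0.17 ± 0.10, adjusted p = 0.25) and MLO12, a membrane protein of powdery mildew susceptibility (-0.16 ± 0.13, adjusted p = 0.416), differed from WT in response and had no called difference from ml2.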

How the data were processed

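RNA from leaves was sequenced in 18 libraries, 3 for each of 3 lines on 2 days, and the 6 libraries of ml5 carry the comparison. The authors deposited estimated counts per gene for 27628 genes, 1 column per library; 97.12% of the values were whole. The submitters' processing notes list Bowtie2 2.0.6 and TopHat2 2.0.12 and name the builds TAIR10 and IRGSP-1.0 (a rice build). The sources used here name no counting tool or strand setting, so reads of a gene and of its antisense partner cannot be told apart.

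Counts were rounded and fitted with edgeR 4.0.16 (R 4.3.3): TMM scaling, filterByExpr with a minimum count of 10, quasi-likelihood tests on 6 group means over 18 libraries, and Benjamini-Hochberg adjustment at 0.05. SE is the size of the log2 fold change over the square root of F. This approximation understates the error where a gene had few reads on one day. A gene with 0 counts in a group got a bound from a floor of 3 counts per library, which covers counting error only. Totals of 14914598 to 20417396 counts and a biological coefficient of variation of 5.63% set the precision; an exact permutation test of 3 against 3 cannot go below p = 0.1. Of 988 list entries 34 had no identifier in the annotation used and were not analysed here.

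The gene lists and named genes were chosen with earlier results of these data known. Named genes followed a rule: from each list the largest changes among called genes with at least 10 CPM in one group and no overlap between groups, then the largest changes and the largest differences over all genes with a symbol, those called in opposite directions, and defining members. Alternatives were RLE size factors, library sizes alone, other filters, DESeq2 1.42.0, limma-voom (limma 3.58.1), no organelle genes, a replicate block, only the libraries compared, and each replicate left out. Promoter windows were read from the TAIR10.1 genome, whose locus identifiers match the table's. The procedure was tested on simulated data in which few genes changed, with up and down drawn at random. That setting cannot test the scaling, since most genes changed in the data.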

Additional observations from a re-analysis of the deposited data

Results flagged for a closer look

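The dark response of ml5 differed from that of WT in 6906 genes and from that of ml2 in 5034, by the test of the difference itself, and 467 genes were called in opposite directions in ml5 and WT. Of the named genes, those are given here whose difference from WT was called with a log2 size of at least 3, or that were called in opposite directions. Values beside gene names are log2 differences, the change in ml5 minus the change in WT, except where a setting is named, which gives the log2 change in ml5.

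Genes that rose in both lines, less in ml5, included the stress and cell wall genes PER4 (-5.08), ABR1 (-4.39), XTH18 (-3.83) and EXO (-5.31), the hormone genes BRU6 (-4.01) and GA2OX6 (-3.52), and the senescence and dark genes SAG29 (-3.88), SAG113 (-3.01) and DIN6 (-3.53). NIT2 (3.08) rose in both and more in ml5. PHI-1 (-6.01), MLO12 (-4.41) and CWINV1 (-3.45) rose in WT and had no called change in ml5.

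Of the genes that fell in both lines, PCC1 (3.71), LEA3 (3.81), ACD6 (3.47) and CYP706A6 (3.45) fell less in ml5, and EXPA16 (-3.76) fell more.

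The genes that fell in ml5 and rose in WT spanned several functions. Transcription factors and clock or light genes were ERF53 (-5.85), DREB26 (-2.35), ERF2 (-0.84), ERF4 (-1.01), MYB51 (-0.87), MYB96 (-2.69), CBP60G (-0.72), FKF1 (-0.73) and PHYA (-0.88). Wall, wax and lipid genes were XTH22 (-3.47), KCS12 (-2.87) and GPAT2 (-2.99). Transporters and water channels were RD28 (-3.22), GAMMA-TIP (-2.53), SWEET12 (-2.31), STP4 (-1.47) and PHO1 (-0.88). Stress, dark and metabolic genes were KIN1 (-3.76), DIN11 (-3.14), IGMT1 (-2.96), CYP707A3 (-2.71), NIA1 (-1.93) and ACO4 (-1.30). Signalling and protein turnover genes were CRK11 (-3.60), SMXL2 (-1.25), ATG18B (-1.06), RD19 (-0.97), EXO70B1 (-0.56), RPN10 (-0.50) and SDF2 (-0.49). The targeted gene ML5 (-1.46) was also among them. In ml5 the direction of ACO4, ATG18B, CBP60G, CRK11, ERF2, ERF4, EXO70B1, GPAT2, MYB51, PHYA, RD19, RPN10, SDF2 and SWEET12 turned upward when only library sizes scaled the counts. Under the same scaling the falls in ml5 of FKF1 (-0.023), KIN1 (-0.18), PHO1 (-0.10), SMXL2 (-0.20) and ML5 (-0.40) were no longer called, and of those that turned upward ACO4, ERF4, RD19 and RPN10 were called so. Leaving out 1 library ended some calls: the fall of KIN1 lost its call without ml5 day 0 replicate 1 (-0.37), that of ERF4 without day 0 replicate 1 (-0.17) or day 7 replicate 2 (-0.16), and that of GPAT2 without day 0 replicate 3 (-0.26) or day 7 replicate 2 (-0.32). The fall of ML5 lost its call without ml5 day 0 replicate 2 (-0.57).

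The genes that rose in ml5 and fell in WT were RVE1 (2.33), CCA1 (1.79), TAT3 (1.78), WRKY70 (1.75), BAM3 (1.47), RPOTP (1.22), SPL3 (1.01), RPS6B (0.72) and RPL3A (0.60). The rise of WRKY70 in ml5 lost its call without ml5 day 0 replicate 3 (0.13). Changes in WT alone were not refitted under the alternatives, so the WT side of every opposite-direction call was not checked for scaling.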

How the results depend on the processing

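Under the alternatives run, 184 of 186 counts of genes stayed within 1.5 times their value. The 2 that moved were the counts of genes with a higher and a lower response in ml5 than in ml2, which with library sizes alone came to 4995 and 1203 (80.6% higher against 52.8%). Library sizes alone also moved the median log2 fold change of all genes in ml5 from 0.002 to 0.41, so that its changes are relative to that shift. Several lists moved with it: ethylene genes to 19 up and 1 down, endoplasmic reticulum genes to 12 and 1, and jasmonate genes to 14 and 9. Abscisic acid genes went to 17 up and 9 down, and genes of the autophagy machinery to 25 and 1. Of 12996 alternative values of named genes, 12711 kept direction and side of the threshold, 192 lost the call, 63 gained it and 30 reversed, all 30 in the ml5 dark response with library sizes alone. Their log2 fold changes became positive there: ACO4 (0.23), ATG18B (0.042), ATG18C (0.066), CBP60G (0.099), CRK11 (0.10), CWINV1 (0.27), ERF2 (0.14), ERF4 (0.21), EXO70B1 (0.082), FAMA (0.12), GPAT2 (0.060), HEMA2 (0.30), HIBCH_CHY1 (0.10), MLO12 (0.35), MYB51 (0.14), and NAC089 (0.37), PAD1 (0.059), PAG1 (0.12), PHI-1 (0.39), PHYA (0.038), RD19 (0.13), RPN10 (0.16), RPN5A (0.040), RPT2A (0.35), SDF2 (0.15), SHD (0.10), SVP (0.11), SWEET12 (0.13), TEM1 (0.25) and WRKY54 (0.082).

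Leaving out 1 library at a time gave 15076 to 15227 called genes in ml5, 6320 to 6461 differences from WT and 4415 to 5785 differences from ml2. Those that ended the ml5 call of a gene called in opposite directions in ml5 and WT (ML5, WRKY70, KIN1, ERF4 and GPAT2) are named with that gene. Replicate numbers did not pair the libraries, since same-numbered ml5 libraries had deviations correlated at 0.010, 0.003 and 0.000. A fit with the replicate number as a block gave 15464 called genes in ml5, 6691 differences from WT and 4809 from ml2. Genes with few reads on one day, among them HSP17.4, ARR6 and AOX1D at day 0 or day 7, are limited by depth.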
